A study of Mus musculus with 8 samples.

Results

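The cytosolic ribosomal protein genes and their paralogues were examined by RNA-seq in white quadriceps, where fast glycolytic fibres prevail, of fasted mice with and without Acot2 in muscle. They were chosen by gene symbol: the numbered Rpl and Rps names, with the letter endings a, x, l, l1 and al, and Rplp0, Rplp1, Rplp2 and Rpsa. The names picked out 85 of 54091 gene rows, of which 30 encode proteins of the small (40S) subunit, 42 proteins of the large (60S) subunit, 3 the P stalk and 10 paralogues. A mean normalized count of at least 10 was reached by 81 of the 85, which were among 13141 tested genes.

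Each sample came from 1 male mouse of 11 to 14 weeks, taken after an overnight fast of 14 h. The 4 knockout mice (replicates 5 to 8) carried a Cre transgene driven by the creatine kinase (CKM) promoter of muscle fibres and are labelled as lacking Acot2 in muscle. The 4 floxed control mice (replicates 1 to 4) carried loxP-flanked alleles without Cre. The Acot2 protein is a thioesterase of mitochondria that frees fatty acids from their CoA esters, and the series title asks how it serves fat oxidation in glycolytic muscle at differing lipid supply. Mice with Cre but without floxed alleles were not analysed here, so Cre and loss of Acot2 cannot be told apart. In bulk muscle RNA, fewer cells of a type and less RNA per cell cannot be told apart either.

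The ribosome reads mRNA on its small subunit and forms peptide bonds on its large subunit, and each subunit joins its proteins to ribosomal RNA in fixed proportions. Ribosomal protein mRNAs are short and abundant, and most begin with a run of pyrimidines, the 5′ terminal oligopyrimidine (TOP) tract, through which mTORC1 controls their translation. A few proteins have a paralogue that can take the same place in the ribosome. The best known in striated muscle is Rpl3l, which stands in for Rpl3 close to the peptidyl transferase centre in skeletal muscle and heart.

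Values below are counts divided by a size factor per library ("normalized counts"), and differences are knockout minus floxed control in log2(normalized count + 1) with the standard error (SE) taken from limma. Reads on genes ranged from 28659593 to 38612931 in the knockout libraries and from 32282094 to 40977859 in the floxed control libraries. Acot2 itself had 413, 312, 600 and 543 normalized counts in knockouts 5 to 8, against 1675, 3927, 2492 and 1530 in floxed controls 1 to 4. Every knockout library lay below every floxed control, at a mean of 19.4% of the control mean, with a difference of −2.30 (SE 0.287, limma adjusted p = 0.087). None of the 10 genes that mark muscle fibres was at 0 in any library.

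Promoter sequence was read from RefSeq for 60 of the 81 tested genes (build GRCm38.p6), from 250 bases before the listed start to 50 after it, at the most upstream start where several are listed. Sequences are shown for 3 genes named below, and the motifs were not tested against transcript levels. Rpl3l is the muscle paralogue and Rpl22l1 the member with the smallest p. Rps27 was one of the most abundant members per kilobase of its shortest transcript. For Rpl3l the capitals mark CANNTG, the E-box read by the MyoD family, in the 250 bases before the start and the first 20 after it (chr17:24727576-24727845, plus strand). For Rpl22l1 (chr3:28805428-28805527, plus strand) and Rps27 (chr3:90213629-90213728, minus strand) the stretch runs from 80 bases before the start to 20 after it. Capitals there mark TATAAA or CTTTC on the gene's own strand and, on either strand, the motif CGGAAG.
Rpl3l: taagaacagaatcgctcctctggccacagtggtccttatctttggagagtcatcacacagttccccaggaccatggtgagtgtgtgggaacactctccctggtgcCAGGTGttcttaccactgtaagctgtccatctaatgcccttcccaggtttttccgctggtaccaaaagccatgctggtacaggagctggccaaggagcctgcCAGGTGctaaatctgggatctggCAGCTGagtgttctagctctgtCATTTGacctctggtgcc
Rpl22l1: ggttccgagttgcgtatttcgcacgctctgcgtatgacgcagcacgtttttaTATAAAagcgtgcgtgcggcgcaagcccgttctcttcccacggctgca
Rps27: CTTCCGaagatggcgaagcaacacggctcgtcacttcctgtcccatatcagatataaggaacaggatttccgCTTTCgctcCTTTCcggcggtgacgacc

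The shown stretch of Rpl3l held 4 E-boxes, that of Rpl22l1 a TATAAA before the start, and that of Rps27 a CTTTC on each side of the start and the ETS-factor core CGGAAG, read on the other strand as CTTCCG, at its upstream end. Over the whole 300 bases, CGGAAG on either strand was in 40 of 60 ribosomal protein promoters (66.7%), against 17.2% of 27025 promoters of all genes. CTTTC, read on the gene's own strand, was in 36 (60%), against 34.5%. CANNTG was in 29 (48.3%), against 72.1%, and TATAAA on the gene's strand in 6 (10%), against 8.88%. The MEF2 motif was in none, against 3.29%, and the CArG box, bound by serum response factor, was in 1, against 1.59%. MEF2, CArG and CANNTG were searched on both strands, and the motifs were counted independently, whether or not they overlapped. In windows nearer the start the CGGAAG share was 43.3%, against 10.6%, and the CTTTC share 28.3%, against 5.40%, while TATAAA between 45 and 10 bases before the start was in 1 promoter (1.67%), against 2.44%. These matches describe letters and not binding, and a window hangs on where RefSeq places the start.

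Per kilobase of the shortest annotated transcript with the principal coding sequence, the members' level had a median of 3612 normalized counts per kilobase over the 8 libraries, with quartiles of 2364 and 5453. The highest was Rplp1 at 10763, a P stalk protein that with Rplp2 forms the lateral arm where elongation factors dock. It was followed by Rps27 at 8703 and Rps24 at 8700, both of the small subunit, and by Rplp0, the anchor of the stalk, at 8061 and Rplp2 at 7923. The first of these was 11406 ± 1791 per kilobase in knockouts and 10120 ± 516 in floxed controls (SD, n = 4 each). The neighbours Rps27 and Rps24 differed by less than their spread over libraries, as did Rplp0 and Rplp2. With the longest annotated transcript as the length, a choice added after seeing the data, Rplp1 and Rplp0 were still the 2 highest, while Rplp2 stood at 3460, Rps27 at 4468 and Rps24 at 1003, outside the highest 5. With the shortest, the large subunit genes had a median of 3148 and the small subunit genes one of 4961.

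The lowest tested members were Rps4l at 26.1 normalized counts per kilobase, Rpl13a at 102, Rpl24 at 153, Rpl36al at 165 and Rpl7l1 at 425. Rpl13a and Rpl24 are large subunit proteins, and the other 3 are paralogues. In the GENCODE annotation, 59.3% of the transcript bases of Rpl13a, 71.5% of those of Rpl24 and 63.1% of those of Rpl36al are also exon of another gene on the same strand, and those genes (Gm45713, Gm28037 and Gm49383) were at 0 in all 8 libraries. Rps10, a small subunit protein, shares 91.6% of its bases with a read-through gene and stood at 2715. No row was matched to that read-through gene by symbol, so Rps10 cannot be compared with the genes above in this respect. The part of the shared exons in these levels was not tested, and the levels of these 4 genes are uncertain for that reason. Outside these, the core subunit genes ran from 802 for Rpl3 to 10763 for Rplp1. Rows named as pseudogenes of members numbered 821, held 0.497% of the sum that the members held, and in 32 cases passed the filter, so few reads of the table lay on them.

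**Figure D1:**
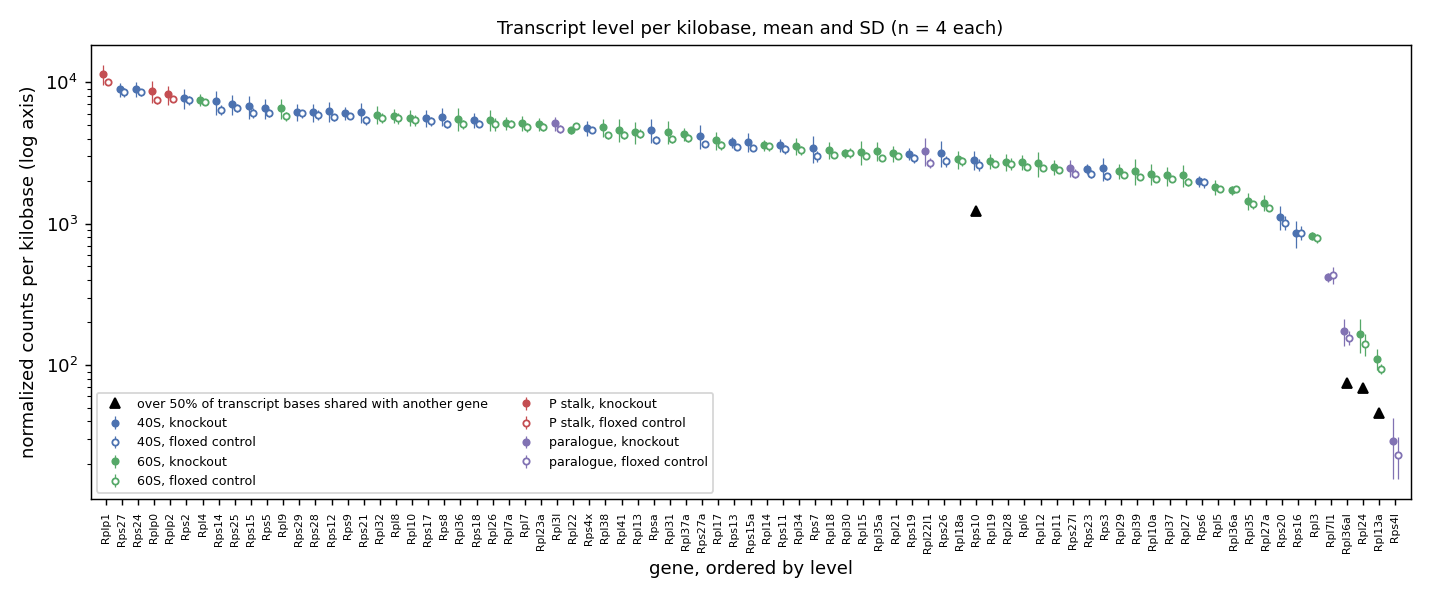
Normalized counts per kilobase of the shortest principal transcript (log axis) for the 81 tested genes in order of level, with filled points for knockout and open points for floxed control, bars showing the SD of 4 libraries, colours for subunits and black triangles under genes whose transcript is more than 50% shared with another gene. The P stalk genes stand at the left end, and Rpl36al, Rpl24, Rpl13a and Rps4l fall below 200 at the right end.

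The whole group took 0.578%, 0.794%, 0.763% and 0.756% of all normalized counts in knockouts 5 to 8, against 0.661%, 0.678%, 0.675% and 0.593% in floxed controls 1 to 4. The means were 0.723% ± 0.098 in knockouts and 0.652% ± 0.0399 in floxed controls (SD, n = 4 each). Knockouts 6, 7 and 8 lay above every floxed control, and knockout 5 below every one, so the groups overlapped. The small subunit genes took 0.296% ± 0.0425 in knockouts and 0.264% ± 0.0169 in floxed controls, and the large subunit genes 0.334% ± 0.0422 in knockouts and 0.307% ± 0.0184 in floxed controls (SD, n = 4 each).

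No member passed an adjusted p of 0.05 in limma with Benjamini-Hochberg adjustment over all 13141 genes, where the share of all genes called was 0.0%. Below an unadjusted p of 0.05 there were likewise 0 of the 81, against 6.16% of all tested genes, and voom on the recovered whole reads also called 0 at either level. The smallest adjusted p of a member was 0.748. Most differences still lay on one side: 76 of the 81 (93.8%) were above 0, against 50.6% of all tested genes, with a median of 0.10, against 0.0031 over all tested genes. This was so for 29 of 30 small subunit genes (median 0.10), 39 of 42 large subunit genes (median 0.08), 3 of 3 P stalk genes (median 0.16) and 5 of 6 tested paralogues (median 0.13). The members share their libraries, so these counts do not stand for that many separate tests. The SE of a member had a median of 0.109, and no member had groups that did not overlap, against 2.75% of all tested genes.

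**Figure D2:**
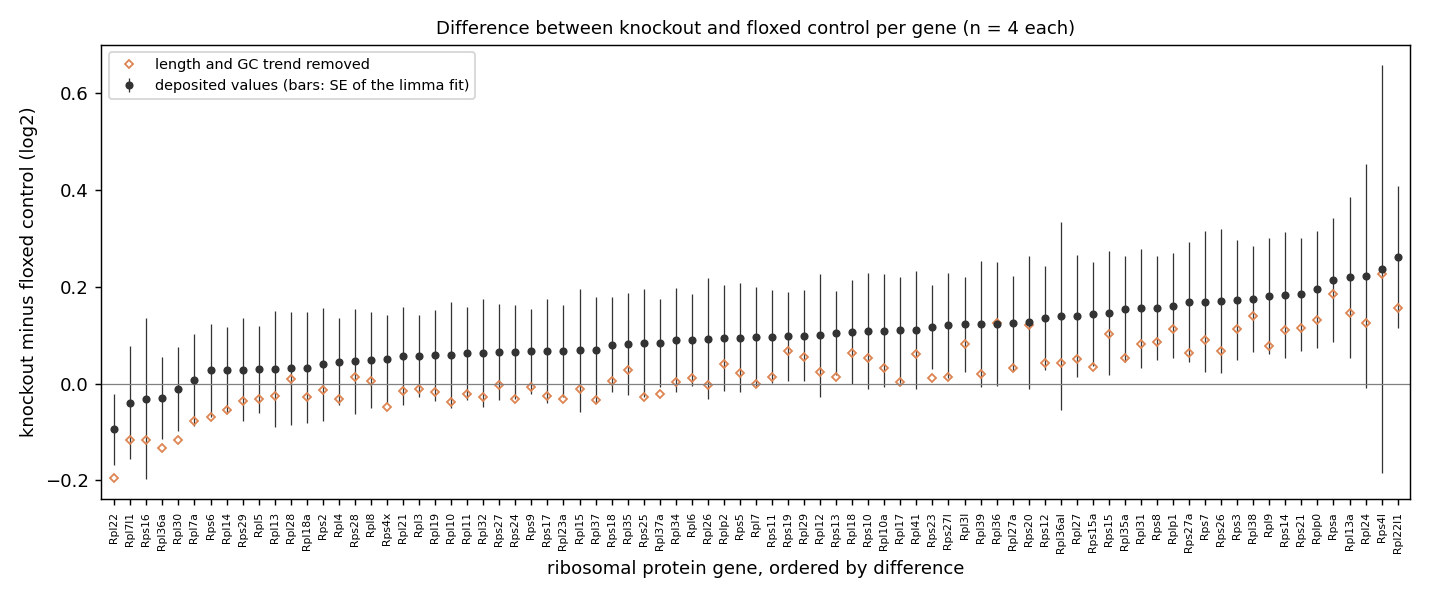
Difference between knockout and floxed control in log2 units for each of the 81 tested genes, ordered by size; dark points with bars are the deposited values with the SE of the limma fit (4 mice each), open diamonds the differences after each library's trend on transcript length and GC content was removed. Dark points lie above 0 for 76 genes and diamonds for 49.

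The members varied together from library to library. Knockout 6 was the highest of the 8 libraries in 60 of 81 members (74.1%), against 18.0% of all tested genes, and knockout 8 in 16 (19.8%), against 14.7%. Knockout 5 was the lowest in 66 (81.5%), against 12.2%, and floxed control 4 in 11 (13.6%), against 15.2%, so knockout 8 and floxed control 4 were near the share over all genes in these ranks. Knockout 6 lay above every floxed control in 73 members (90.1%), against 28.4% of all tested genes. For knockout 8 it was 70 (86.4%), against 27.3%, for knockout 7 it was 33 (40.7%), against 24.3%, and for knockout 5 it was 0, against 16.8%. Floxed control 4 lay below the other 3 floxed controls in 70 (86.4%), against 28.1%. The SD within a group, pooled over both, had a median of 0.167 (log2) over the members, against 0.137 over 2034 other genes between the 10th and 90th percentiles of the members' levels. In knockouts alone the median SD was 0.219, against 0.233 over all tested genes, and in floxed controls 0.098, against 0.188. After the median of the members was subtracted from each library, the pooled SD had a median of 0.0707.

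**Figure D3:**
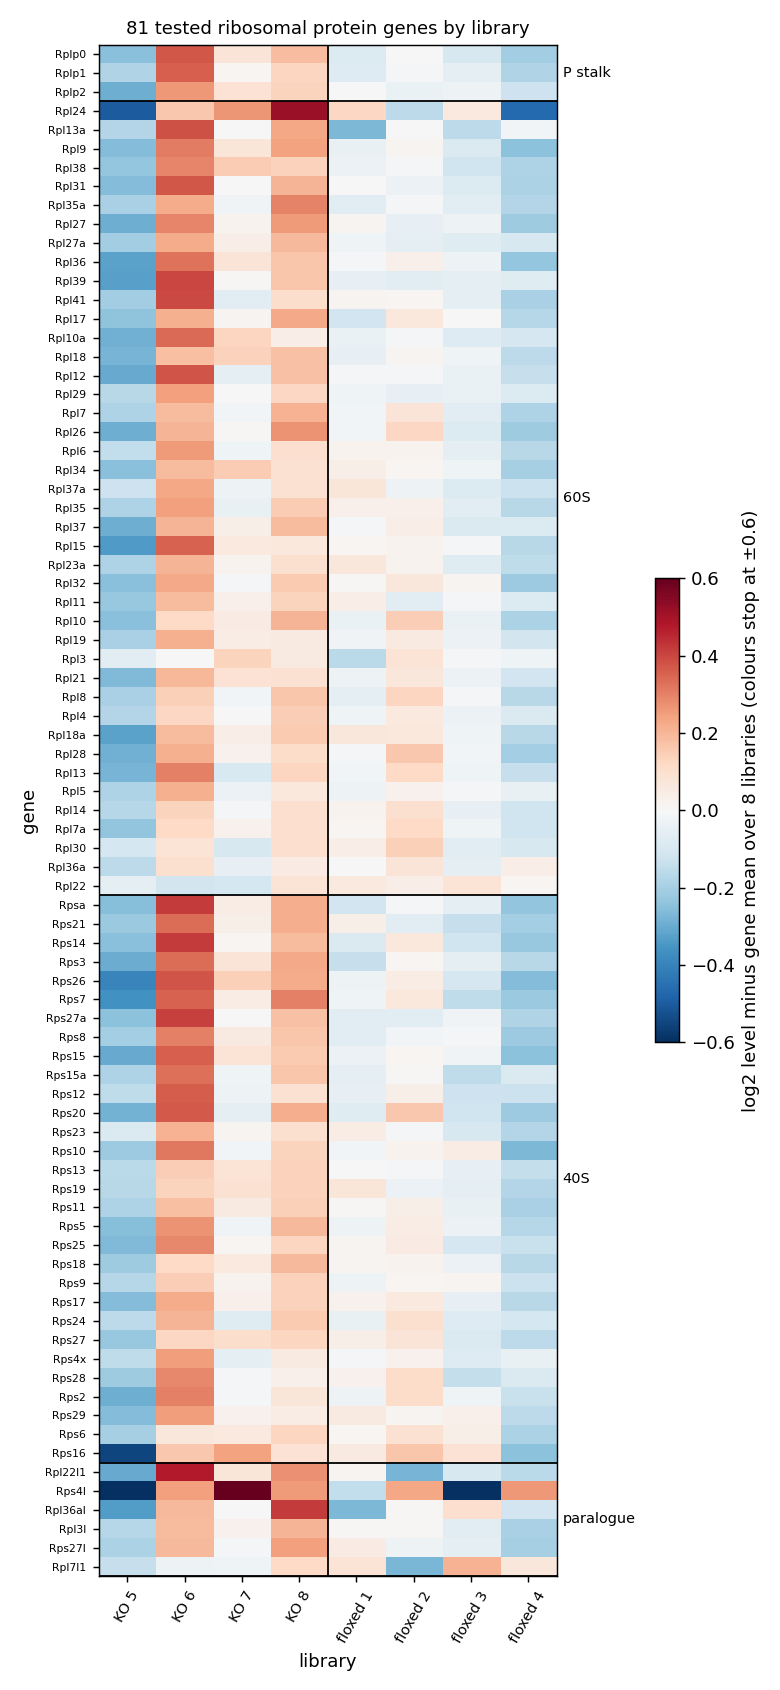
Log2 level of the 81 tested genes minus each gene's mean over the 8 libraries (colour scale from −0.6 to 0.6), with libraries across, the 4 knockouts left of the 4 floxed controls, and genes down by class. Columns rather than single rows carry most of the colour: knockout 5 and floxed control 4 are blue and knockouts 6 and 8 red in most rows.

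Ribosomal protein transcripts are short, with a median of 680 bases, against 2670 over all tested genes, and other short genes moved with them. The median deviation of 1319 other genes with transcripts under 1 kb was −0.12, 0.15, 0.05 and 0.13 in knockouts 5 to 8, against 0.0010, 0.03, −0.04 and −0.11 in floxed controls 1 to 4. Of these genes, 856 of 1319 were higher in the knockout, with a median difference of 0.08. Of 2052 genes with transcripts of at least 5 kb, 712 were higher, with a median of −0.07. Titin (Ttn), the giant sarcomere protein with a very long mRNA, took 13.9%, 8.67%, 8.34% and 9.22% of normalized counts in knockouts 5 to 8, against 12.8%, 11.8%, 12.2% and 14.9% in floxed controls 1 to 4. The libraries with the most titin, knockout 5 and floxed control 4, were thus those with the smallest ribosomal protein share. After each library's trend on length and GC content was removed, 49 of the 81 members were above 0, against 48.8% of all genes. The members then had a median of 0.013. Only 1 member, Rpl22, had an unadjusted p under 0.05 (limma difference −0.20 and unadjusted 0.0477, against 3.16% of all genes in that direction). The trend was fitted to these same values, so its removal also takes out any real difference that goes with length or GC content. The part of transcript length in the members' shift was not tested.

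**Figure D4:**
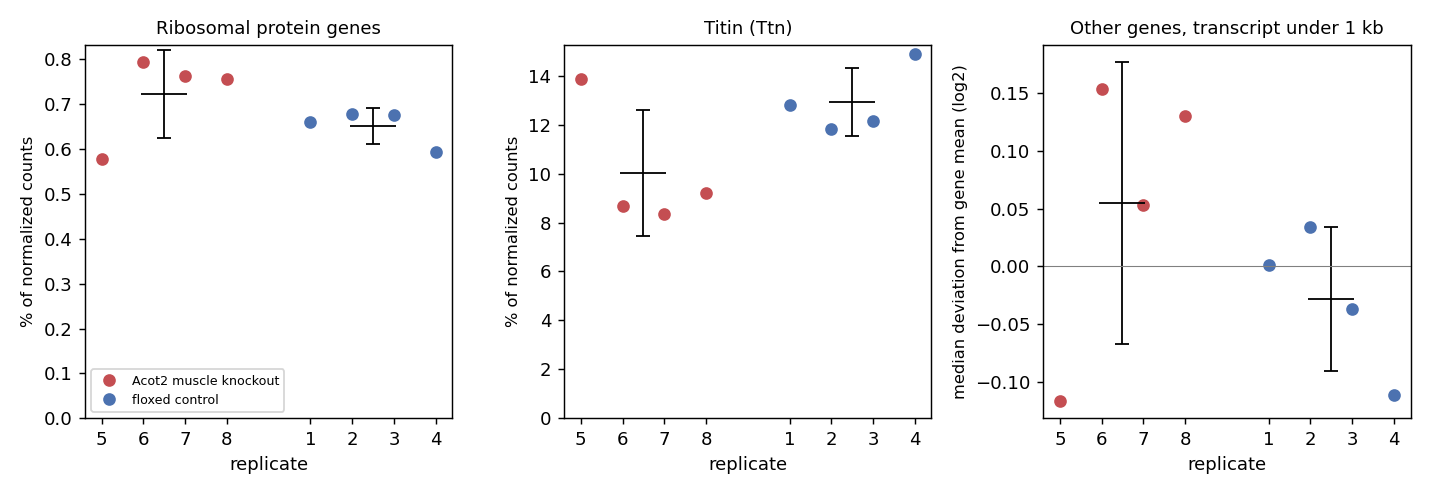
Per library, the share of normalized counts on ribosomal protein genes (left), the share on titin (middle), and the median log2 deviation of other genes with transcripts under 1 kb (right), with points for libraries and black bars for the mean and SD of 4. Knockout 5 is the lowest point of its group on the left and right and the highest in the middle.

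Other transcripts of the tissue differed between the same libraries. The summed normalized counts of 10 macrophage and leukocyte markers ranged from 2548 to 4409 in knockouts, highest in knockout 6, and from 1557 to 2795 in floxed controls, with 10 of 10 higher and none at 0. The satellite cell and myoblast markers summed to 557, 3027, 618 and 457 in knockouts 5 to 8, against 512 to 606 in floxed controls, where knockout 6 alone stood apart through 2526 normalized counts of Myh3, the embryonic myosin heavy chain. The slow and fast oxidative fibre markers summed to 5401 to 61441 in knockouts, highest in knockout 7 through 59055 normalized counts of the fast oxidative myosin Myh2, and to 5669 to 20457 in floxed controls. Of these 8 markers 7 were higher in the knockout, with a median of 1.22, and Myh2 was not, at −0.009 (SE 0.809). All but Myh2 and Atp2a2 had low counts, which varied widely between libraries. Myl3, a slow fibre light chain, had 38.8, 107, 89.4 and 43.6 normalized counts in knockouts 5 to 8. In floxed controls 1 to 4 it had 17.2, 33.1, 1.0 and 3.6. The difference of Myl3 was 2.89 (SE 0.775, limma adjusted p = 0.746). The smooth muscle and pericyte markers summed to 15681 to 17544 in knockouts and 12375 to 15629 in floxed controls, with 5 of 6 higher. These sums stood apart by a narrow margin only, and the groups overlapped for each of the 6 genes. Rgs5 made up most of the sums, with means of 10830 in knockouts and 9526 in floxed controls. The endothelial markers summed to 9578 to 11290 in knockouts and 8316 to 9610 in floxed controls, with 8 of 10 higher. The sums of the fibroblast, adipocyte, Schwann cell and red blood cell markers overlapped between the groups. Fibroblast sums ranged from 60340 to 105340 in knockouts, highest in knockout 6, and from 64876 to 79358 in floxed controls, with 8 of 10 higher. Among these markers, Col3a1 had 7529, 27236, 5730 and 6642 normalized counts in knockouts 5 to 8. In floxed controls 1 to 4 Col3a1 had 6269, 6029, 7493 and 8456. No marker of these lists was called. At an unadjusted p under 0.05 in limma there were 5 of 10 macrophage and leukocyte and 4 of 10 endothelial markers, all higher. The slow and fast oxidative fibre, Schwann cell, and smooth muscle and pericyte lists had 1 each, also higher. Over all tested genes 6.16% passed that level in either direction. The part of these cell types in the ribosomal protein levels was not tested.

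Without knockout 5, 80 of 81 members were higher (51.0% of all genes), with a median of 0.19, and 29 had an unadjusted p under 0.05 (all higher, against 8.1% of all genes in that direction), with a smallest adjusted p of 0.116. Without knockout 5 and floxed control 4, 79 were higher (50.7% of all genes), with a median of 0.15, and 16 had an unadjusted p under 0.05, all higher (against 5.21%). Without knockout 6, 61 were higher (49.9% of all genes), with a median of 0.03, and 0 had an unadjusted p under 0.05 (1.29% of all genes were higher at that level). Knockout 5 was the lowest library in most members, and floxed control 4 the lowest floxed control in most. Leaving out libraries that stand out in these same values shifts the difference and narrows the spread. The p-values without them are therefore no separate support. So the size of the shift and the count of unadjusted p-values hung on single libraries, and no adjusted p under 0.05 was reached in any of these fits.

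Among the P stalk genes, Rplp0 had 9122, 14051, 11458 and 12342 normalized counts in knockouts 5 to 8, against 10259, 10814, 10143 and 9386 in floxed controls 1 to 4. The difference was 0.19 (SE 0.122, limma adjusted p = 0.751), with 3 knockouts above every floxed control and knockout 5 below them all. Rplp1 had a difference of 0.16 and Rplp2 of 0.09, with knockout 6 the highest of the 8 libraries for both.

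In the small subunit, the smallest p-values were those of Rpsa and Rps21. Rpsa, which besides its place in the ribosome is known as a precursor of the laminin receptor, had 5669, 9047, 6979 and 7868 normalized counts in knockouts 5 to 8, against 6247, 6698, 6485 and 5733 in floxed controls 1 to 4. The difference was 0.21 (SE 0.129, limma adjusted p = 0.749), and the groups overlapped through knockout 5 alone. Rps21 had a difference of 0.18 (SE 0.117). Rps26 had one of the larger spreads, with a pooled SD of 0.256 and a difference of 0.17. Rps16 had the widest spread among small subunit genes, at a pooled SD of 0.286: it had 644, 1056, 1115 and 1002 normalized counts in knockouts 5 to 8, against 979, 1061, 1001 and 796 in floxed controls 1 to 4. It alone of the small subunit was not above 0, with a difference of −0.03 (SE 0.166). Rps6, the substrate of the S6 kinases downstream of mTORC1, had a difference of 0.03 (SE 0.0956).

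In the large subunit, Rpl38, known in mouse embryos for its part in the translation of Hox mRNAs, had 1320, 1895, 1720 and 1702 normalized counts in knockouts 5 to 8, against 1510, 1540, 1425 and 1361 in floxed controls 1 to 4. The difference was 0.17 (SE 0.110, limma adjusted p = 0.751). On the other side, Rpl22 had 2150, 2075, 2083 and 2367 in knockouts 5 to 8, against 2328, 2301, 2366 and 2256 in floxed controls 1 to 4, with a difference of −0.09 (SE 0.0729, limma adjusted p = 0.785). It was the member with the smallest spread within groups, at a pooled SD of 0.0659, followed by Rpl36a at 0.0893 and Rpl3 at 0.0936. Rpl36a and Rpl30 had differences of −0.03 and −0.01, neither beyond its SE. Rpl5 and Rpl11, which with 5S ribosomal RNA bind Mdm2, had differences of 0.03 and 0.06.

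Rpl24, with a pooled SD of 0.361, was the most variable member with a mean of at least 100 normalized counts. It had 71.2, 113, 122 and 145 in knockouts 5 to 8, against 110, 90.5, 105 and 72.9 in floxed controls 1 to 4, with a difference of 0.22 (SE 0.231). Rpl13a had 93.7, 138, 106 and 125 in knockouts 5 to 8, against 87.9, 106, 94.9 and 105 in floxed controls 1 to 4, with a difference of 0.22 (SE 0.166). Both share exon bases with another gene, as given above, and their groups overlapped.

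Rpl3l lies at chr17:24727820-24736143 on the plus strand of GRCm38 and Rpl3 at chr15:80077791-80091868 on the minus strand, each with 10 exons. In this muscle the paralogue was the more abundant transcript. Rpl3l had 5964, 7652, 6829 and 7737 normalized counts in knockouts 5 to 8, against 6743, 6746, 6432 and 5865 in floxed controls 1 to 4. Rpl3 had 1030, 1081, 1185 and 1123 in knockouts 5 to 8, against 966, 1144, 1075 and 1064 in floxed controls 1 to 4. Per kilobase the ratio of Rpl3l to Rpl3 averaged 6.24 in knockouts and 5.96 in floxed controls.

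The groups overlapped for both genes. The difference was 0.12 for Rpl3l (SE 0.0978, 95% interval −0.09 to 0.34, limma adjusted p = 0.794) and 0.06 for Rpl3 (SE 0.0846, 95% interval −0.13 to 0.24, limma adjusted p = 0.874). The ratio of Rpl3l to Rpl3 within a library does not depend on the scaling between libraries. It was 5.78, 7.08, 5.76 and 6.88 in knockouts 5 to 8, against 6.97, 5.89, 5.98 and 5.51 in floxed controls 1 to 4, a difference of 0.07 in log2 (exact two-sided permutation test over 70 assignments, p = 0.657). After the length and GC trend was removed the difference was 0.08 for Rpl3l (SE 0.0945) and −0.01 for Rpl3 (SE 0.0801).

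The ratio of Rpl22l1 to Rpl22 was the pair with the smallest p. Rpl22 is known in mouse to hold down its paralogue Rpl22l1. Rpl22l1 had 1254, 2153, 1626 and 1870 normalized counts in knockouts 5 to 8, against 1562, 1273, 1448 and 1380 in floxed controls 1 to 4, with a difference of 0.26 (SE 0.147, limma adjusted p = 0.748), the smallest p among the members. The ratio to Rpl22 was 0.583, 1.04, 0.781 and 0.790 in knockouts 5 to 8, against 0.671, 0.554, 0.612 and 0.612 in floxed controls 1 to 4. Knockouts 6, 7 and 8 lay above every floxed control and knockout 5 within their range.

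The log2 ratio differed by 0.36 (exact two-sided permutation p = 0.114, Benjamini-Hochberg adjusted over the 5 pairs 0.536). Without knockout 5 the difference was 0.50, and without knockout 5 and floxed control 4 it was also 0.50, given with no test since knockout 5 was the only knockout within the floxed range. The other 3 pairs stood as follows. The ratio of Rps27l, known in human and mouse cells as a p53 target, to Rps27 differed by 0.05 (exact permutation p = 0.40). The ratio of Rpl36al to Rpl36a differed by 0.17 (exact permutation p = 0.314). That of Rpl7l1 to Rpl7 differed by −0.14 (exact permutation p = 0.429).

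**Figure D5:**
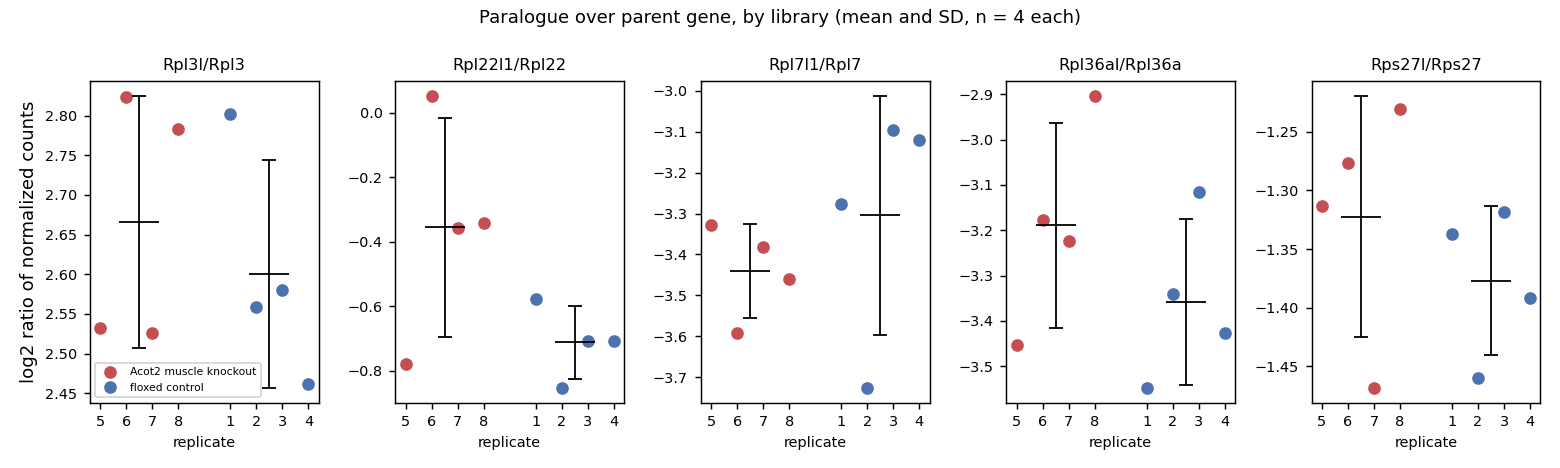
Log2 ratio of a paralogue to its parent gene by library for 5 pairs, with knockouts 5 to 8 left of floxed controls 1 to 4 and black bars for the mean and SD of 4; each panel has its own axis. Knockouts 6, 7 and 8 sit above the 4 floxed controls for Rpl22l1 over Rpl22, knockout 5 lies within their range there, and the groups overlap in all 5 panels.

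The remaining paralogues were weakly expressed. Rps4l had 9.92, 22.9, 35.4 and 23.0 normalized counts in knockouts 5 to 8, against 17.2, 22.6, 10.4 and 23.1 in floxed controls 1 to 4, with the widest spread of all members. Below the filter lay Rpl6l at a mean of 3.38, Rpl39l at 1.88, Rps12l1 at 0.151 and Rpl10l, a testis paralogue of Rpl10, listed at 0 in all 8 libraries. No fold is given for these 4.

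Further lists of the same programme were described in the same way. Of the ribosomal protein genes outside the name pattern, Fau had a difference of 0.10 (SE 0.0938) and Rps3a1 one of 0.07 (SE 0.0931). Of 23 other TOP genes, 8 were higher and 15 lower, with a median of −0.09; none was called, and 5 had an unadjusted p under 0.05, all lower (against 3.7% of all genes in that direction). Snhg12, a small nucleolar RNA host, had 398, 291, 349 and 340 normalized counts in knockouts 5 to 8, against 496, 480, 419 and 470 in floxed controls 1 to 4, and a difference of −0.44 (SE 0.116, limma adjusted p = 0.746). Hnrnpa1 had a difference of −0.25 (SE 0.0815, limma adjusted p = 0.746).

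Of 49 tested ribosome biogenesis genes, 14 were higher and 35 lower, with a median of −0.04 and 5 with an unadjusted p under 0.05, all lower (against 3.7% of all genes in that direction). Nucleolin (Ncl), the nucleolar protein of ribosomal RNA transcription and processing, had 3193, 2620, 2663 and 2811 in knockouts 5 to 8, against 3188, 3422, 3308 and 3515 in floxed controls 1 to 4, a difference of −0.25 (SE 0.0826). Sdad1 had a difference of −0.23. Of 28 tested genes of mTORC1 and the control of ribosomal protein translation, 9 were higher and 19 lower, with a median of −0.06 and 5 with an unadjusted p under 0.05, all lower (against the same 3.7%). Ddit4l, an mTORC1 inhibitor of muscle, had a difference of −0.49 (SE 0.142) and Tsc1 one of −0.27 (SE 0.0984), both at a limma adjusted p of 0.746.

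The elongation factor Eef1a1, itself a TOP gene, had a difference of 0.20 (SE 0.110, limma adjusted p = 0.748), and its adult muscle paralogue Eef1a2 one of −0.03 (SE 0.0935). None of these lists had a called gene, and the differences between the lists were not tested. The trend on transcript length and GC content was not removed for these lists.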

How the data were processed

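RNA-seq libraries came from 4 Acot2 muscle knockout and 4 floxed control mice, grouped by the genotype labels. Per the labels' protocols, column-purified RNA went into stranded TruSeq libraries. Trimming, alignment and counting tools in the submitters' processing notes are STAR, HTSeq, cutadapt, FastQC and DESeq2, with build GRCm38. Of versions, annotation release and strand setting, none is given in the sources used here. Deposited log2 values are log2(n + 1), where n is reads divided by a size factor per library: from the values, 100% of values of at most 200 reads were whole within 0.1.

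Genes averaging at least 10 normalized counts were tested with limma 3.58.1 in R 4.3.3 (eBayes with trend), with Benjamini-Hochberg adjustment, on the deposited pseudocount of 1, which understates changes of low genes. On data simulated for this comparison with 13141 genes, 33.9% of 1.5-fold, 62.2% of 2-fold and 86.8% of 4-fold changes were recovered. Each simulated run held a fixed number of changed genes, picked anew at random, and the counts of each gene were drawn independently. The shifts that genes of a library share here were absent, so these shares need not hold for the real libraries. Per kilobase values use the shortest GENCODE M21 transcript with the principal coding length, and motif windows were widened to the whole promoter after the narrower ones were seen. Named genes were Acot2, the paralogues with Rpl3, the 5 smallest p in each direction, the extremes in level and spread, the members under the filter and 2 genes per list; others (Rps3a1, Rps6, Rps10, Rpl5, Rpl11, Ttn, Myh2) were chosen after their values were seen, and 1 gene that the rule selects is not reported here. The members, lists and tests were chosen with earlier results of these data known. The labels give no batch. Alternatives covered pseudocount, filter, scaling, variance model, voom, length and GC content, mouse numbers and libraries left out; counting error sets the precision of low genes.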

Additional observations from a re-analysis of the deposited data

Results flagged for a closer look

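Rps27, a small subunit protein, had 2555, 3256, 3219 and 3271 normalized counts in knockouts 5 to 8, against 3067, 3160, 2813 and 2680 in floxed controls 1 to 4. In the knockouts, knockout 5 lay so far below the other 3 that its gap took 0.935 of the range of the log2 levels, past the 95% critical value of Dixon's test for 4 samples. Of 58 groups examined this was the 1 that stood out, and chance alone marks about 1 group in 20.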

How the results depend on the processing

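No member was called under any of the 21 alternatives. No paired analysis was possible because the replicate numbers 1 to 8 run over the series and no number is shared between the groups. Of 22 named members, 14 kept the sign of their difference throughout. Members with an unadjusted p under 0.05 numbered 1 with the length and GC trend removed (with either transcript choice, the longest being added after seeing the data), 16 without floxed control 4 and knockout 5, and 0 to 29 when each library was left out in turn, when the count of higher members ran from 61 (without knockout 6) to 80 (without knockout 5). With the trend removed 49 were higher, and Rpl3 turned to −0.012, Rps24 to −0.032 and Rps27 to −0.0030; with the longest transcript Rpl3 was −0.0063 and Rps27 −0.037. With equal totals, which moved the median of all genes to 0.044, Rpl30 was 0.030, Rpl36a 0.011, Rpl7l1 0.0019 and Rps16 0.010. Without floxed control 4 and knockout 5, Rpl36a was 0.025, Rpl7l1 0.016 and Rps16 0.061; without floxed control 3 and knockout 8, Rps4l was −0.042. Leaving out each library gave −0.046 to 0.035 for Rpl30, −0.067 to 0.017 for Rpl36a, −0.138 to 0.023 for Rpl7l1, −0.118 to 0.148 for Rps16 and −0.0091 to 0.570 for Rps4l. The cause was not tested. Reads in the low paralogues limit their values by counting error.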
